A study of Mus musculus with 4 samples.

Results

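Tbr1, Bcl11b, Cux1, Cux2, Fezf2, Neurod1, Neurod2 and Neurod6 encode transcription factors that set or maintain the identity of cortical projection neurons, the glutamatergic neurons that send axons out of their own cortical area. These 8 genes were taken by their symbols in the array annotation, among 24185 symbols, and 14 of the 55681 distinct probes on the array carry 1 of them. The question addressed was which of their mRNAs were recovered more strongly with an antibody to the cytoplasmic polyadenylation element binding protein CPEB2 than with a control antibody. Corticohippocampal tissue of male C57BL/6 mice aged 8 weeks was lysed, the lysate was divided, and beads carrying CPEB2 IgG or control IgG were incubated with it, after which the RNA held on the beads was hybridised to Agilent mouse expression arrays in a single colour. The 2 experiments gave 2 CPEB2 IgG and 2 control IgG arrays, all of unmodified animals. No input RNA array and no array from mice lacking CPEB2 was analysed here, so the signal with control IgG is the only background. The labels do not say how many animals each lysate came from. The p-values rest on these 2 experiments alone, and each combines a probe's own spread with a spread pooled over all tested probes. In GEO a description line for the CPEB2 arrays speaks of CPEB3 IgG, but sample titles and the study's methods say CPEB2, which is used here.

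CPEB proteins bind the cytoplasmic polyadenylation element (CPE), written UUUUAU or UUUUAAU, in the 3′-untranslated region of an mRNA and control its poly(A) tail and translation. Tbr1 and the zinc finger proteins Fezf2 and Bcl11b (CTIP2) act mainly in deep-layer neurons, with Tbr1 favouring corticothalamic and Fezf2 and Bcl11b subcerebral projection neurons, and the homeodomain proteins Cux1 and Cux2 mark upper-layer neurons. Neurod1, Neurod2 and Neurod6 are basic helix-loop-helix activators of neuronal differentiation, of which Neurod1 is also used in the granule neurons of the hippocampal dentate gyrus.

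The probes that carry the main contrasts are shown by 30 of their 60 bases, in the sense of the mRNA, because the gene names alone do not show that different stretches of a gene were measured. Capitals mark the letters TTTTAT or TTTTAAT, the DNA spelling of the CPE. A probe was called upstream or downstream by its place along the transcribed strand relative to the other probes of its gene.
Neurod1 upstream: gcaacttctctttcaaacacgaaccatccg
Neurod1 downstream: acagaatTTTTAATgactTTTTATaacgtg
Neurod2: ctccgcgttTTTTATtTTTTATtttggtgg
Bcl11b upstream: ggcaaggtcttcaagaactgtagcaacctg
Bcl11b downstream: attacgtatcgtatgagcttttgttgtttg
Tbr1 upstream: tcgatcccaccgctcattacaatatttttg
Tbr1 downstream: ttgttttctgctcgtttgtatcgtctgtgt
Cux1 downstream: ctgcttgcttctttagcaaaatattctggt
Cux2 upstream: ctctttcagctaTTTTAATaaaggatcctt
The letters were present in 3 of the 14 probes, namely Neurod1 downstream with 1 copy of each spelling, Neurod2 with 2 copies of TTTTAT and Cux2 upstream with 1 copy of TTTTAAT. Over the whole array 4.54% of probes held either spelling on the sense strand, and 32 probes (0.0575%) held both. The longest run of letters shared by probes of different members was 10 bases over 84 pairs compared, so the members' probes are not near-copies of each other.

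All 14 probes were well above background on all 4 arrays. Differences below are log2 differences, CPEB2 IgG minus control IgG, of signals taken relative to the array's own 75th percentile, averaged over the 2 experiments with the SD over them (n = 2), and a probe was called when its adjusted p in limma, with experiment as a block, was under 0.05. Of the 13 probes tested, 3 were called higher with CPEB2 IgG, where 12.7% of all 41138 tested probes were, and 4 were called lower, where 14.8% of all were. Counted by the brightest tested probe of a gene, Neurod1 was the 1 member higher (17.9% of 19698 genes were), Tbr1, Bcl11b, Cux1 and Fezf2 were the 4 lower (16.3% of genes were), and Cux2, Neurod2 and Neurod6 were not called. Counted by any probe, 2 members had a probe that was higher and 4 had a probe that was lower, with Bcl11b in both counts. The share of all genes by any probe was not computed, and genes with several probes have more chances to be called, so these counts have no comparison. In fits that left out 1 array, made without the block, the members called lower numbered 0 (without the CPEB2 IgG array of experiment 2 or the control IgG array of experiment 1) or 1 (without either other array), and over the array 2741 to 5010 probes were called higher in place of 5228 and 2542 to 6332 lower in place of 6095. When dim probes were also tested, limma called 0 of 55615 probes at this threshold, although 16093 had an unadjusted p under 0.05, and the lowest adjusted p of a member probe was 0.0961. Of all calls 46.2% were on the higher side, and 57.3% with median centring. The median over the 13 member probes was -0.38, against -0.20 over all tested probes. With the marked Tbr1 spot described below kept, the median over the 8 genes turned from -0.79 to 0.006, because a different Tbr1 probe then was the brightest. That probe was not called (1.13, limma, adjusted p = 0.0688), so Tbr1 then left the 4 members called lower. No value overlapped between the antibodies in 13 of the 13 probes, and in 65.6% of all tested probes.

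**Figure D1:**
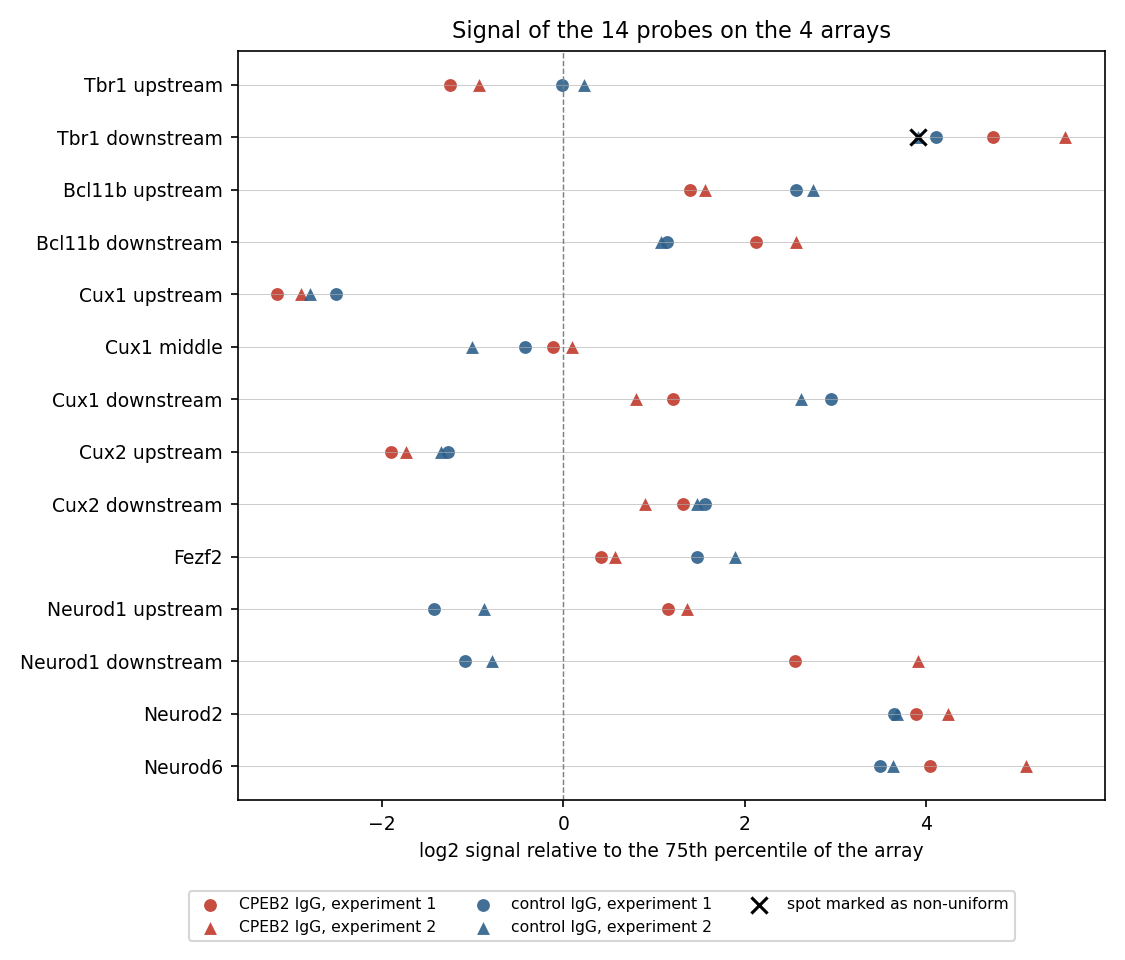
Signal of each of the 14 probes on the 4 arrays, as log2 relative to the 75th percentile of the array (0, dashed line), with CPEB2 IgG in red, control IgG in blue, circles for experiment 1, triangles for experiment 2 and a cross on the 1 spot that the scanner software marked. The CPEB2 IgG points lie right of the control IgG points for both Neurod1 probes and left of them for Fezf2 and for the upstream probes of Tbr1 and Bcl11b.

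The NeuroD family held the largest difference. The downstream Neurod1 probe (mm9, chr2:79293621-79293680, minus strand) gave signals of 2460 and 6288 with CPEB2 IgG in experiments 1 and 2, against 208 and 246 with control IgG. Both CPEB2 IgG arrays were an order of magnitude above both control arrays, and the array of experiment 2 was the highest. The log2 difference was 3.64 in experiment 1 and 4.70 in experiment 2, with a mean of 4.17 ± 0.74 (SD, n = 2, 18.0-fold, limma, adjusted p = 0.00679), and 15 of the 41138 tested probes had a larger one. The upstream Neurod1 probe (chr2:79294309-79294368), 688 bases away on the same transcript, gave 935 and 1076 with CPEB2 IgG against 164 and 233 with control IgG. Here too the antibodies were fully separated, and the 2 CPEB2 IgG arrays lay close together. Its log2 difference was 2.41 ± 0.26 (SD, n = 2, 5.32-fold, limma, adjusted p = 0.00727). Leaving out any 1 of the 4 arrays kept both calls, with log2 differences of 3.49 to 4.85 for the downstream probe (adjusted p 0.0162 to 0.0436) and 2.13 to 2.69 for the upstream probe (0.0187 to 0.0486). The downstream probe is poor in G and C (23.3%), and tested probes in its bin of GC content had a median log2 difference of 0.67. After centring within GC bins the differences were 3.50 downstream and 2.72 upstream, both still called (adjusted p = 0.0133 for each).

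The other NeuroD members were bright with both antibodies. Neurod6 (chr6:55628006-55628065, minus strand) gave 6912 and 14397 with CPEB2 IgG against 5025 and 5299 with control IgG. The antibodies did not overlap, but the CPEB2 IgG array of experiment 2 stood well above that of experiment 1. Its log2 difference was 1.00 ± 0.65 (SD, n = 2, 2.01-fold, limma, adjusted p = 0.0829), and after GC centring it was 0.34. Neurod6 passed the test without the CPEB2 IgG array of experiment 1 (1.53, adjusted p = 0.0323), with median centring (1.23, adjusted p = 0.0229) and in 3 of the other settings. Neurod2 (chr11:98187943-98188002, minus strand), whose probe holds TTTTAT in 2 copies, gave 6214 and 7944 with CPEB2 IgG against 5547 and 5441 with control IgG. The ranges were separate but close, and the log2 difference of 0.41 ± 0.23 (SD, n = 2, limma, adjusted p = 0.339) lay just below the upper quartile of all tested probes (0.42).

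**Figure D2:**
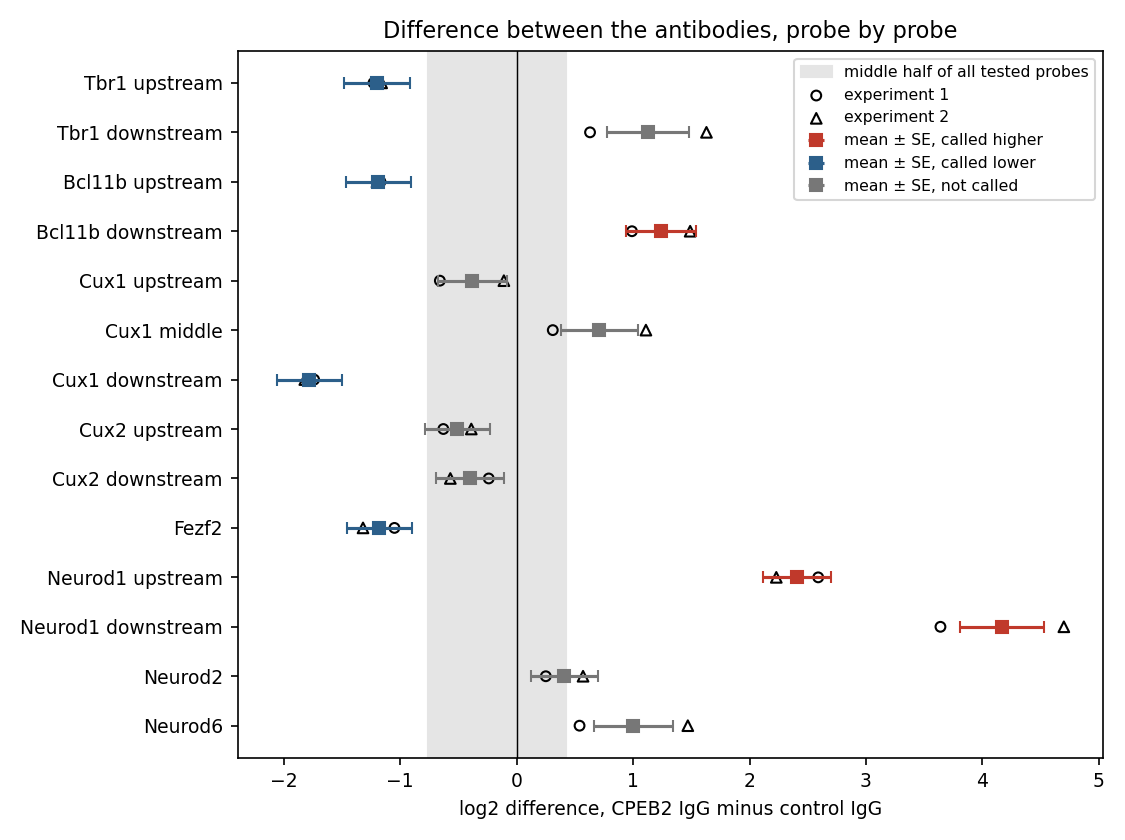
Log2 difference between CPEB2 IgG and control IgG for each probe, with open symbols for the 2 experiments, squares with bars for the mean and its limma SE, colours for the call (red higher, blue lower, grey not called) and shading between the quartiles of all tested probes (-0.76 to 0.42). Both Neurod1 probes lie far right of the shading, and Tbr1 and Bcl11b each have an upstream probe left of 0 and a downstream probe right of 0. The downstream Tbr1 probe is drawn from the fit that kept its marked spot.

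Among the deep-layer factors, Fezf2 (chr14:13175057-13175116, minus strand) gave 559 and 623 with CPEB2 IgG against 1226 and 1577 with control IgG. Both control arrays were above both CPEB2 IgG arrays. The log2 difference was -1.18 ± 0.19 (SD, n = 2, 2.27-fold lower, limma, adjusted p = 0.033). This call was lost without any 1 of the 4 arrays (adjusted p 0.071 to 0.161, log2 difference -1.40 to -0.97), after GC centring (-0.88, adjusted p = 0.053) and with scaling to spike-in probes (adjusted p = 0.108), while the sign did not change in any of these settings.

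Bcl11b was measured by probes that went opposite ways. The upstream probe (chr12:109153847-109153906, minus strand), annotated to transcript variant 2, gave 1102 and 1237 with CPEB2 IgG against 2631 and 2886 with control IgG. The downstream probe (chr12:109148932-109148991), annotated to transcript variant 1, gave 1826 and 2489 with CPEB2 IgG against 973 and 901 with control IgG. Control IgG arrays were thus the high ones at the upstream probe and the low ones at the downstream probe. The log2 differences were -1.19 ± 0.02 (SD, n = 2, limma, adjusted p = 0.031) upstream and 1.24 ± 0.35 (SD, n = 2, adjusted p = 0.0331) downstream. The upstream call was lost without any 1 array (adjusted p 0.0528 to 0.126), and the downstream call was lost without the CPEB2 IgG array of experiment 2 (0.0701), the control IgG array of experiment 1 (0.106) or that of experiment 2 (0.11). The upstream probe has 53.3% GC and the downstream probe 35%, and the medians of their GC bins were -0.51 and 0.67. After GC centring the differences were -0.68 (adjusted p = 0.113) and 0.57 (adjusted p = 0.132).

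Tbr1 showed the same order along the gene. The upstream probe (chr2:61644054-61644113, plus strand) gave 176 and 220 with CPEB2 IgG against 439 and 498 with control IgG, and all 4 values were separate by antibody. Its log2 difference was -1.20 ± 0.05 (SD, n = 2, limma, adjusted p = 0.0305), a call lost without any 1 array (adjusted p 0.0579 to 0.136) and with scaling to spike-in probes (0.102), but not after GC centring (-1.28, adjusted p = 0.024). The downstream probe (chr2:61652093-61652152), on the same transcript, gave 11160 and 19488 with CPEB2 IgG against 7633 and 6443 with control IgG. The scanner software marked its spot on the control IgG array of experiment 2 as non-uniform, so that it was not among the 13 probes tested. With marked spots kept, the CPEB2 IgG arrays were both above the control arrays, and the log2 difference was 0.63 and 1.63 in the 2 experiments (mean 1.13 ± 0.70, SD, n = 2, 2.19-fold, limma, adjusted p = 0.0688). The median of its GC bin was 0.67.

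The upper-layer factor Cux1 had 3 probes spread over 31161 bases of the genome. The downstream probe (chr5:136724181-136724240, minus strand), annotated to transcript variant 2, gave 966 and 726 with CPEB2 IgG against 3427 and 2609 with control IgG. Both control arrays were far above both CPEB2 IgG arrays. Its log2 difference was -1.78 ± 0.06 (SD, n = 2, 3.44-fold lower, limma, adjusted p = 0.0111), the lowest among the member probes. GC centring gave -1.87 (adjusted p = 0.0146), and the call was lost without the CPEB2 IgG array of experiment 2 or without the control IgG array of experiment 1 (adjusted p = 0.0544 for each). Besides the homeodomain protein, the Cux1 locus is known to make CASP, a Golgi protein that lacks the DNA-binding domains, and the annotation used here does not say which protein variant 2 encodes. The count of Cux1 as lower rests on this probe alone. Whether it describes the mRNA of the homeodomain protein is therefore not known.

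The other Cux probes were not called. The middle Cux1 probe (chr5:136750136-136750195), annotated to variant 1, gave 388 and 448 with CPEB2 IgG against 330 and 211 with control IgG, a log2 difference of 0.71 ± 0.56 (SD, n = 2, limma, adjusted p = 0.164). The upstream Cux1 probe (chr5:136755342-136755401), also on variant 1, was the dimmest of the 3 on every array, with 46.8 and 56.0 against 78.0 and 61.5 (-0.38 ± 0.38, SD, n = 2, adjusted p = 0.392). At both probes the antibodies did not overlap, but 1 of the experiments gave a small difference (0.31 in experiment 1 for the middle and -0.11 in experiment 2 for the upstream probe). Cux2 gave 112 and 125 with CPEB2 IgG against 183 and 167 with control IgG at its upstream probe (chr5:122310226-122310285, minus strand, -0.51 ± 0.17, SD, n = 2, adjusted p = 0.236). At its downstream probe (chr5:122308503-122308562) it gave 1046 and 778 against 1307 and 1174 (-0.40 ± 0.23, SD, n = 2, adjusted p = 0.344). At both Cux2 probes all CPEB2 IgG values lay below all control values, and neither probe passed the test. The upstream probe, with 23.3% GC, was called lower after GC centring (-1.18, adjusted p = 0.029).

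**Figure D3:**
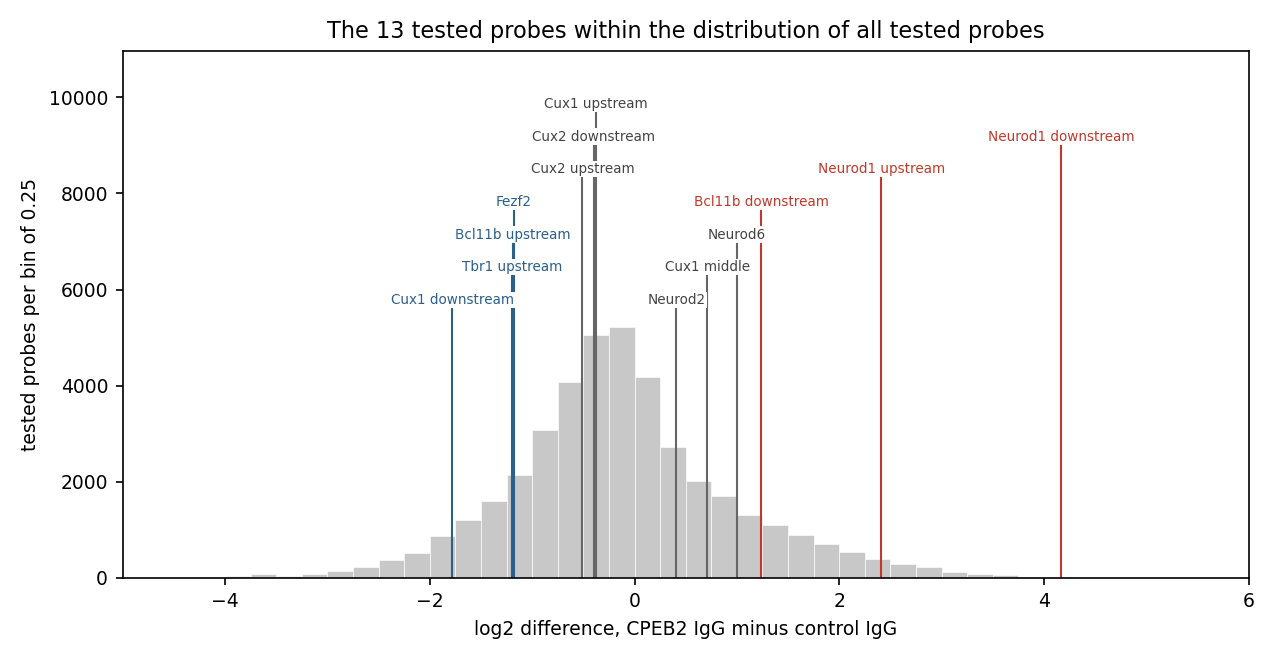
Distribution of the log2 difference over all 41138 tested probes (grey, number of probes per bin of 0.25), with a line for each of the 13 tested member probes, red for called higher, blue for called lower and dark grey for not called. The downstream Neurod1 probe, at 4.17, lies in the far right tail, and the 4 probes called lower lie between -1.78 and -1.18.

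The probes of a gene were then compared with each other, as the log2 ratio of the downstream to the upstream probe with CPEB2 IgG minus the same ratio with control IgG. Such a value says that the stretches changed unequally and not which of them did. Of 8907 pairs of tested probes of a gene on the array, 25.5% were called unequal by limma. That number, 2275, was 0 without the CPEB2 IgG array of experiment 2, 346 and 490 without the control IgG array of experiment 1 or 2, and 1433 without the CPEB2 IgG array of experiment 1. For Bcl11b the value was 2.16 and 2.69 in the 2 experiments (mean 2.43 ± 0.37, SD, n = 2, adjusted p = 0.0195), over 4915 bases, and it was called in the fits without 1 array except the fit without the CPEB2 IgG array of experiment 2 (adjusted p = 0.0612). For Tbr1, with the marked spot kept, it was 2.32 ± 0.65 (SD, n = 2, adjusted p = 0.0253) over 8039 bases. For Neurod1 it was 1.05 and 2.47 (mean 1.76 ± 1.0, SD, n = 2, adjusted p = 0.0535), not called, although it passed without the CPEB2 IgG array of experiment 1 (adjusted p = 0.0424).

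Cux1 did not follow that order. Its downstream probe was lower relative to the middle probe by -2.49 ± 0.62 (SD, n = 2, limma, adjusted p = 0.021) and relative to the upstream probe by -1.40 ± 0.44 (SD, n = 2, adjusted p = 0.041). Without the CPEB2 IgG array of experiment 2 or either control array, neither pair was called (adjusted p 0.0524 to 0.0612 and 0.0817 to 0.134). The middle and upstream Cux1 probes, which share variant 1, differed by 1.09 ± 0.18 (SD, n = 2, adjusted p = 0.0522), and this passed without the block (0.0352). The Cux2 probes differed by 0.11 ± 0.41 (SD, n = 2, adjusted p = 0.83). In Bcl11b and between the downstream and the other Cux1 probes the position of a probe and its annotated variant cannot be told apart. The Tbr1 and Neurod1 pairs each lie on a shared transcript, whereas the Cux2 probes are annotated to a RefSeq and an Ensembl transcript.

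**Figure D4:**
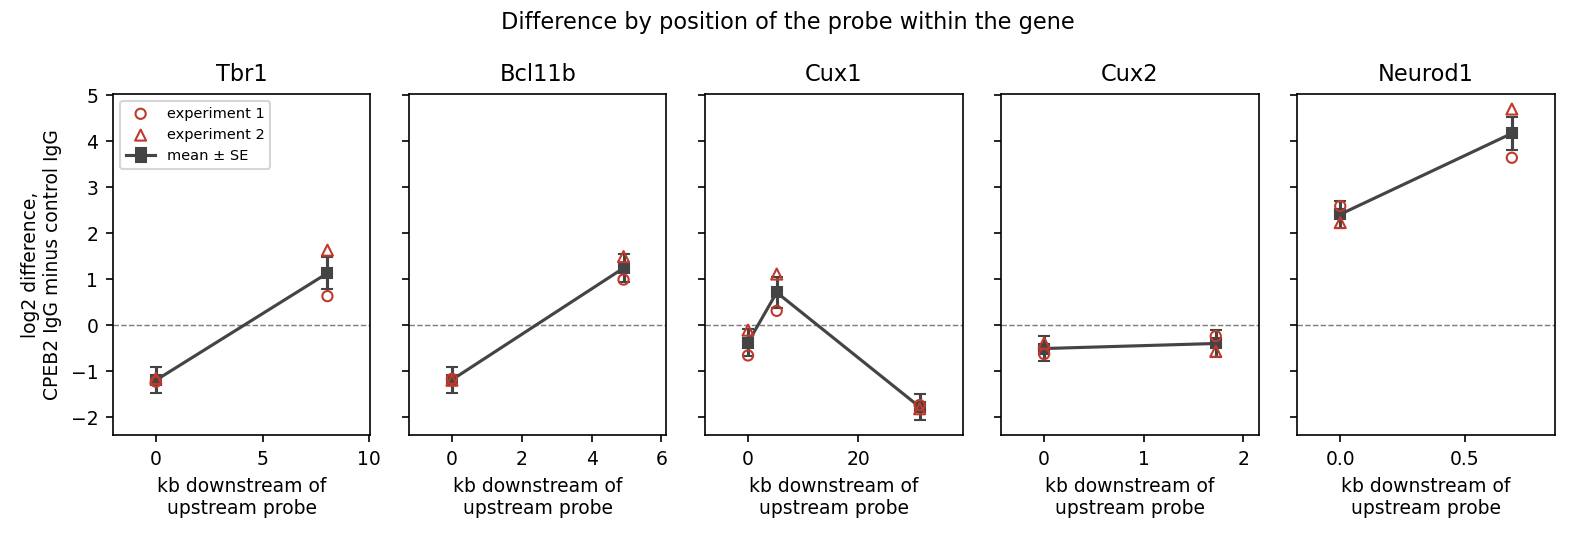
Log2 difference between CPEB2 IgG and control IgG against distance along the transcribed strand from the upstream probe, in kilobases, for the 5 members with several probes, with red symbols for the experiments and squares with bars for the mean and its limma SE. Values are higher at the downstream probe for Tbr1 (marked spot kept), Bcl11b and Neurod1, nearly level for Cux2, and lowest at the most distant probe for Cux1.

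A like order was common on the array, in a comparison chosen after the members' values were seen. Among 6170 pairs of probes of a gene at most 10000 bases apart, the downstream probe had the larger difference in 69.7%, with a median excess of 0.36, and the call fell on the downstream side in 1148 pairs and on the upstream side in 222. Among the 4509 pairs annotated to 1 transcript the share was 71.7%, and the median excess was 0.37. The excess in Bcl11b, Tbr1 and Neurod1 was above these medians, as was that of the middle over the upstream Cux1 probe (1.09). That in Cux2 (0.11) was below them. No test of the members against other genes was made, and the pairs over the array were not centred for GC. After GC centring the Bcl11b pair was called (limma, adjusted p = 0.0358) and the Neurod1 pair was not (adjusted p = 0.128).

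The CPE letters within probes were examined in the same way, also after the values were seen. Tested probes with either spelling had a median log2 difference of 0.34 and were called higher in 27.8%, against -0.22 and 12% for probes with neither. Probes with the letters were poorer in GC (median 35% against 45%), and after GC centring the medians were 0.11 and -0.05. The 3 member probes with the letters differed by 4.17, 0.41 and -0.51, that is in the order Neurod1 downstream, Neurod2 and Cux2 upstream. The Bcl11b downstream and Neurod1 upstream probes, both called higher, hold neither spelling. A probe covers 60 bases only, and the CPE content of the full 3′-untranslated regions was not analysed here.

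The study's methods call transcripts bound by a fold above 1.5 and a raw signal above 1000, without saying how the experiments were combined, and require a CPE. Read here as a mean fold above 1.5 and a signal above 1000 on either array or both with CPEB2 IgG, without the CPE, 4 of 13 member probes passed, namely both Neurod1 probes, Bcl11b downstream and Neurod6. Over the array 7.68% of 55615 probes passed. That total includes dim probes that could hardly reach the signal threshold, whereas all member probes were well above background on all arrays. The shares are therefore not alike. Neurod1 upstream passed by its signal in experiment 2 alone (1076, against 935 in experiment 1). This rule uses no test, and with the marked spot kept Tbr1 downstream passed as well. Requiring the fold in each experiment left 3.

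Levels of different probes were not compared, since each probe has its own efficiency. All values come from bulk lysate, so they do not show which cells a recovered RNA came from. In each experiment the lysate was divided, so both antibodies were given the same mix of cells.

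Probes of other genes within 20 kilobases were few. Fam109a, on the opposite strand near Cux2, was lower with CPEB2 IgG (-1.02, limma, adjusted p = 0.0469), and the transcripts D030051J21Rik near Fezf2 and CB521226 near Neurod6 were not called (0.67 and 0.97, adjusted p = 0.149 and 0.3).

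Other transcription regulators of the cortex were read from 5 lists, by the brightest tested probe of each gene. The lists were chosen with earlier results of these data known, so their counts are no test of cortical regulators against the array. Of 75 tested genes, 27 were higher with CPEB2 IgG and 8 were lower, with a median log2 difference of 0.74, against 17.9% and 16.3% called and a median of -0.11 over all 19698 genes. The higher calls numbered 14 without the CPEB2 IgG array of experiment 2 and 15 without the control IgG array of experiment 2, and the lower calls 3 or 4 without any 1 array. The 8 members, at 1 higher and 4 lower with a median of -0.79, lay below the all-gene median. With the marked Tbr1 spot kept, Tbr1 was not called lower, and the members' median was 0.006, above the all-gene median as in the lists. No difference between the members and the lists was tested.

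Among the 29 layer and subtype regulators 9 were higher and 2 lower, with a median of 0.74, or 0.488 after GC centring. The largest were Foxp2, a forkhead factor of corticothalamic neurons (2.21, limma, adjusted p = 0.0104), the zinc finger gene Tshz3 (2.21, adjusted p = 0.00898) and Bcl11a (CTIP1), the paralogue of Bcl11b (2.03, adjusted p = 0.0089). Bcl11a was bright, with 34712 and 32904 with CPEB2 IgG against 9135 and 8060 with control IgG, and its other probes gave 1.93 to 1.94. The other tested Foxp2 probe gave -0.76, so that Foxp2, like Bcl11b, had probes of opposite sign. Mef2c, an activity-regulated factor (-1.73, adjusted p = 0.0119), and Nfix (-1.0, adjusted p = 0.0494) were lower, and the other Nfix probe gave -0.02. After GC centring Foxp2 (1.54), Tshz3 (1.54), Bcl11a (1.36) and Mef2c (-1.43) were still called, and Nfix was not (-0.49, limma, adjusted p = 0.195). The higher calls of the list numbered 15 with median centring, 16 with normexp or an intensity trend and 5 with the mean of a gene's probes. Without 1 array they numbered 3 (without CPEB2 IgG of experiment 2), 4 (without either control array) or 8. Foxp2, Tshz3 and Bcl11a kept their calls in all 4 of these fits, Nfix in none (adjusted p 0.0841 to 0.216), and Mef2c lost its call without control IgG of experiment 2 (0.051).

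Of 14 tested cortical progenitor regulators 6 were higher and 2 lower, with a median of 0.54. Hes1, the Notch effector and repressor of proneural genes, had signals of 3841 and 6139 with CPEB2 IgG against 231 and 273 with control IgG, a log2 difference of 4.33 (20.1-fold, limma, adjusted p = 0.00679). Both CPEB2 IgG arrays were far above both control arrays. Insm1, a zinc finger factor of intermediate progenitors, differed by 3.34 (adjusted p = 0.00679) and Sox11 by 2.99 (adjusted p = 0.00704). Emx1, a dorsal telencephalic homeodomain gene, was lower by -1.35 (adjusted p = 0.0221). Eomes (Tbr2), the relative of Tbr1 in intermediate progenitors, was lower by -1.28 (adjusted p = 0.0458), with signals of 508 and 34 against 936 and 119, so that the experiments differed more than the antibodies did. After GC centring Hes1 (3.66), Insm1 (2.67) and Sox11 (2.32) were still called. Emx1 (-0.84, limma, adjusted p = 0.0853) and Eomes (-1.37, adjusted p = 0.0532) were not. Hes1, Insm1 and Sox11 kept their calls without any 1 array (adjusted p at most 0.045), whereas Emx1 (0.0513 to 0.11) and Eomes (0.188 to 0.947) were called in none of these fits, and Eomes was not called without the block (0.592). The sign of Eomes turned without CPEB2 IgG of experiment 2 (0.661) and without control IgG of experiment 1 (0.174).

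E proteins are the dimerisation partners of NeuroD factors, and Id proteins bind E proteins and keep them from DNA. Of these 7 genes 5 were higher and none was lower, with a median of 1.47. Tcf12 differed by 2.40 (limma, adjusted p = 0.00731), Id1 by 1.84 (adjusted p = 0.0151) and Id2 by 1.66 (adjusted p = 0.0177). The other Tcf12 probe gave 0.16, and Id2 is also counted among the layer and subtype regulators. After GC centring Tcf12 (1.73), Id1 (1.18) and Id2 (0.99) were still called, and the list's median was 1.176. Without 1 array 1 to 4 of the 7 were called higher, fewest without control IgG of experiment 2. Tcf12 was called in all 4 such fits, Id1 was lost without CPEB2 IgG (0.0717) or control IgG (0.0542) of experiment 2, and Id2 was called only without CPEB2 IgG of experiment 1 (0.028, and 0.0552 to 0.0765 otherwise).

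Of 14 interneuron transcription factors 3 were higher, namely Dlx2 (2.28, limma, adjusted p = 0.00931), Maf (1.49, adjusted p = 0.0184) and Nr2f2 (1.24, adjusted p = 0.0293), and 2 were lower, namely Npas1 (-1.82, adjusted p = 0.0109) and Dlx6 (-1.25, adjusted p = 0.0294). The list's median was 0.46, and the other Maf probe gave 0.22. After GC centring Dlx2 (1.61), Maf (1.41) and Npas1 (-1.52) were still called. Nr2f2 (0.57, limma, adjusted p = 0.133) and Dlx6 (-0.79, adjusted p = 0.117) were not. Npas1 alone among these kept its call without any 1 array, and the higher calls of the list numbered 0 without CPEB2 IgG of experiment 2 and 1 without control IgG of experiment 2. They numbered 6 with quantile normalization, median centring or an adjusted p under 0.1, and 5 with normexp, detection on all 4 arrays or the mean of a gene's probes. Of 12 tested glial transcription factors 5 were higher, led by the lymphoid and microglial factor Ikzf1 (2.39, adjusted p = 0.0097, its other tested probe -0.05), Sox8 (2.24, adjusted p = 0.00918) and the microglial factor Irf8 (2.20, adjusted p = 0.00792). Ikzf1 was dim, with 125 and 93 with CPEB2 IgG against 18 and 25 with control IgG. Its control values lay below the medians of those arrays (75.8 and 76.5). The oligodendrocyte factors Sox10 (-1.92, adjusted p = 0.0109) and Myrf (-1.44, adjusted p = 0.0268) were lower, and the glial median was 0.98. After GC centring Ikzf1 (2.7), Sox8 (1.57), Irf8 (2.51) and Sox10 (-1.61) were still called, and Myrf was not (-0.94, limma, adjusted p = 0.135). Ikzf1, Sox8, Irf8 and Sox10 kept their calls without any 1 array, and Myrf, dim on every array, was called only without control IgG of experiment 2 (0.0346) and not without the block (0.152).

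**Figure D5:**
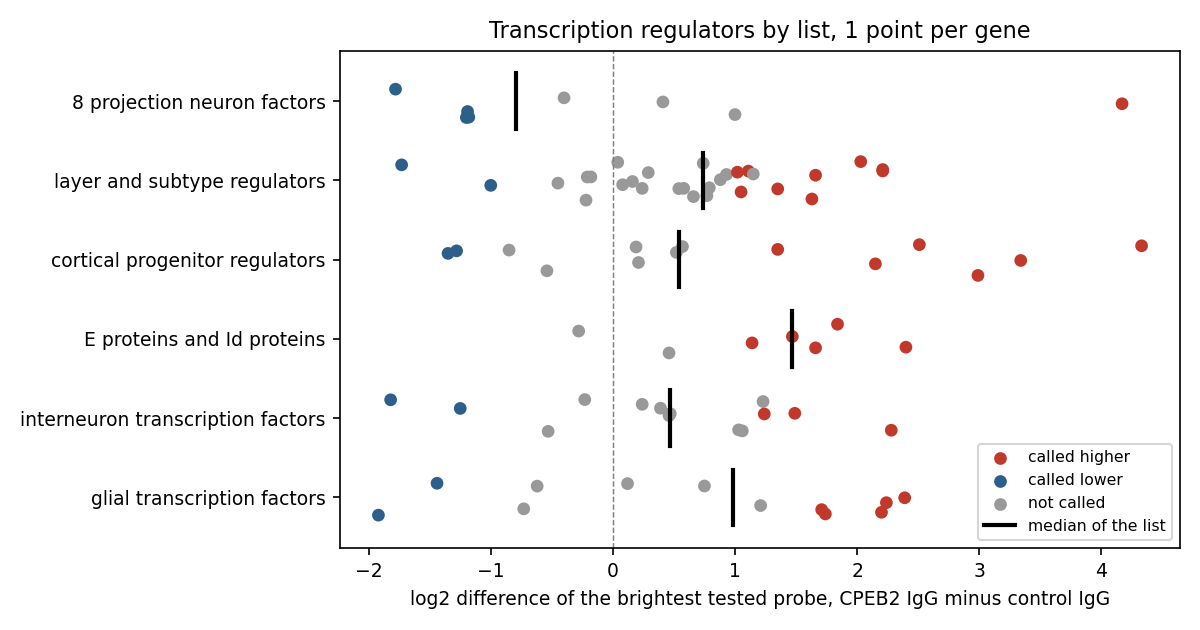
Log2 difference of the brightest tested probe of each gene, for the 8 projection neuron factors and the 5 lists of other transcription regulators, with 1 point per gene (red called higher, blue called lower, grey not called, vertical spread within a list has no meaning) and a black bar for the list's median. The medians of the 5 lists lie between 0.46 and 1.47 and that of the 8 projection neuron factors at -0.79, with the marked Tbr1 spot left out.

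Marker genes of all the main cell types gave signal in the RNA held on the beads. Of 42 cell type marker genes looked at here 41 were well above background on all 4 arrays, including Slc17a7 and Camk2a of projection neurons, Gad1 of interneurons, Glul of astrocytes and Cx3cr1 of microglia, and none was at 0. Of 9 projection neuron markers 2 were higher with CPEB2 IgG and 4 lower (median log2 difference -0.95, range -1.89 to 2.39), and their summed scaled signal, in units of the array's 75th percentile, was 172 and 168 with CPEB2 IgG against 374 and 387 with control IgG. It was 69.5 and 66.1 against 130 and 128 for 8 interneuron markers (0 higher, 3 lower, median -0.79, range -1.98 to 0.73) and 370 and 306 against 727 and 599 for 9 astrocyte markers (2 higher, 3 lower, median 0.59, range -3.77 to 3.44). It was 42.9 and 40.0 against 41.4 and 66.1 for 9 microglia markers (1 higher, 4 lower, median -0.70, range -2.64 to 2.30). Of 8 oligodendrocyte markers 2 were higher and 1 lower (median 0.27, range -1.96 to 2.59), and the sum over 7 of them was 210 and 198 with CPEB2 IgG against 110 and 87.8 with control IgG, the marker sum that was higher with CPEB2 IgG in both experiments. The eighth is not reported here. These sums weigh bright probes most. The astrocyte sum with control IgG was mostly Aldoc, with signals of 30139 and 22718 with CPEB2 IgG against 225494 and 183759 with control IgG. The oligodendrocyte sum with CPEB2 IgG was mostly Mal, with 64629 and 63638 against 12632 and 9643. These sums thus follow 1 gene each and do not describe their lists. The sums of projection neuron, interneuron and astrocyte markers were all lower with CPEB2 IgG. Of the 9 projection neuron markers 5 were not called lower. A relation of these sums to the members' differences was not tested. The arrays had 68.4% to 74.1% of spots well above background and no saturated spot, with median raw signals of 59.0 to 76.5, both lowest on the CPEB2 IgG array of experiment 2. All 4 arrays were on 1 slide, with the control arrays in neighbouring positions and the CPEB2 IgG arrays in the next ones, so that slide position and antibody cannot be told apart.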

How the data were processed

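RNA from 2 CPEB2 IgG and 2 control IgG immunoprecipitations was measured on 1-colour Agilent SurePrint G3 Mouse GE 8x60K arrays. The authors deposited scanner files of Agilent Feature Extraction 10.5.1.1, which give the intensity of each spot, background-corrected by that software and not normalized between arrays, and flag columns for background and spot quality. Probe sequences, symbols and mm9 coordinates are those of the array annotation. For 13 of the 14 member probes the annotated transcript carries the same symbol in RefSeq. The downstream Cux2 probe is annotated to an Ensembl transcript.

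The members and gene lists were chosen with earlier results of these data known. Processed intensities were put on the log2 scale, and the 75th percentile of each array was subtracted. Controls were excluded, as were spots flagged non-uniform or as population outliers, which removed 66 of 55681 probes, and repeated spots of a probe were averaged. The 41138 probes well above background on at least 2 of 4 arrays were tested with limma 3.58.1 (R 4.3.3; lmFit, eBayes) with experiment as a block, leaving 1 residual degree of freedom before moderation, and Benjamini-Hochberg adjustment over all tested probes with a threshold of 0.05. The pairing comes from the methods, which divide a lysate between the antibodies, and the deviations of same-numbered arrays correlated at 0.206. Pairs of probes of a gene were tested in the same way on their log2 ratio. Genes were represented by their brightest tested probe. All member probes are named, as are in each list the 3 genes called higher and the 3 called lower with the largest change, and cell type markers are given by count, range and level.

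Alternatives were other scalings, centring within 8 bins of probe GC content, normexp background correction (offset 50), marked spots kept, no block, an intensity trend, other filters and thresholds, the mean of a gene's probes, and leaving out each array (fitted without the block, with a lone array assumed to vary like the other group) or each experiment. Scripts were tested on simulated data. The small number of arrays limits the precision. Python 3.11.15, numpy 2.4.6, pandas 2.3.3 and matplotlib 3.10.9 were used.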

Additional observations from a re-analysis of the deposited data

How the results depend on the processing

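The sign of all 13 member probes held under all alternatives, and both Neurod1 probes were called in all fits except the one with no filter on dim probes. Without that filter limma called 0 probes of 55615 in either direction, and so 0 member probes, 0 member genes and 0 other regulators, although 16093 probes and 7 member probes had an unadjusted p under 0.05; with the filter 8 member probes had. Scaling to spike-in probes left 1 member probe, 1 member gene and 4 other regulators called lower. An intensity trend gave 5 member probes called higher. Member genes called higher numbered 2 with median centring, normexp, a trend, detection on all 4 arrays or an adjusted p under 0.1, and those called lower numbered 2 with GC centring or the mean of a gene's probes. GC centring left 4 other regulators lower. With the filter kept, the lower calls of the 5 lists of regulators, at most 2 in each, moved by 1 or 2 with several settings, the most to 4 glial factors with a trend and to 0 progenitor regulators with spike-in or GC centring. Leaving out 1 array gave 0 to 1 member probes and 0 to 1 member genes lower, 1 to 2 member genes higher, 14 to 24 other regulators higher and 3 to 4 lower, 2741 to 5010 probes higher and 2542 to 6332 lower over the array, and 0 to 1433 unequal pairs. Dropping the replicate block, that is the pairing of arrays by experiment, changed no call of a member probe and gave 5432 probes higher and 5928 lower in place of 5228 and 6095, and of the member pairs only Cux1 middle against upstream was then newly called (1.09, adjusted p = 0.0352). Of the named other regulators, Eomes and Myrf lost their calls without the block (adjusted p = 0.592 and 0.152).

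List medians changed sign for astrocyte markers with GC centring (-0.081), for oligodendrocyte markers with the mean of probes (-0.264) and for the members with marked spots kept (0.006). The Cux2 pair, not called, changed sign with quantile normalization (-0.138), normexp (-0.034) and without the CPEB2 IgG array of experiment 1 (-0.192), and the fits without 1 array reached up to 0.402. Eomes ranged from -3.23 to 0.661 in those fits. Of 23 named other regulators 12 were called in all 4 of them and 3 in none. Other scalings moved the median of all tested probes by -0.11 to 0.23, and median centring moved the share of calls that were higher from 46.2% to 57.3%. Keeping marked spots in the fold and signal rule, an alternative chosen after seeing the data, gave 5 member probes in place of 4. With 2 arrays per antibody and 1 residual degree of freedom, the causes of these shifts were not tested.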
